A study of Homo sapiens with 8 samples.

Results

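The set of genes described here encodes the extracellular matrix of a tumor cell: the collagens, the laminins and other basement membrane proteins, the matrix glycoproteins and microfibrils that surround them, and the enzymes that hydroxylate, fold and crosslink collagen. It was defined by a list of 50 gene symbols, and all 50 were found, 1 row each, among the 17649 genes of the table. Transcripts were measured by RNA-Seq of total RNA from MDA-MB-231, a long-established human line of estrogen receptor negative breast cancer. The control group was 4 libraries of cells that received only the PBS vehicle. The NCML group was 4 libraries of the same line exposed to 1 μM of CML for 48 hours. CML is carboxymethyllysine, an advanced glycation end product that forms when sugar-derived carbonyls react with lysine, and both groups were cultured in low-glucose medium. The comparison asked which transcripts differ when CML is added. The model is a single cell line at a single dose and time, and nothing in the sources used here says whether the replicates were cultured on separate occasions, so the p-values measure the spread between these libraries.

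The extracellular matrix is the network of proteins and sugars that cells secrete around themselves. Collagen chains are hydroxylated on proline and lysine and folded into triple helices in the endoplasmic reticulum, then secreted, assembled and crosslinked outside the cell by lysyl oxidases. Epithelial cells rest on a basement membrane of laminin and type IV collagen networks joined by nidogen, perlecan and agrin, whereas fibroblasts are known as the main source of the fibrillar collagens of the stroma in breast tumors.

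Each library held an estimated 16161807 to 18954731 reads, so that 1 read was worth 0.0535 to 0.0622 CPM (the reads of a gene scaled to the size of its library), and a count of 0 allows a level of up to 0.161 to 0.187 CPM (3 reads, counting error only). The markers of the line were high, with VIM at 4014 to 4243 CPM and CD44 at 803 to 885 CPM, and 5 of 6 luminal and epithelial markers were in the table, with a summed level of 25.4 to 29.0 CPM. Of these PGR was at 0 to 0.114 and CDH1 at 0.311 to 0.954 CPM, whereas EPCAM was at 12.7 to 16.3, ERBB3 at 6.22 to 7.51 and GATA3 at 3.47 to 5.60 CPM. Of the markers of other cell types, 6 of 7 fibroblast, 2 of 3 endothelial and 3 of 3 leukocyte genes were in the table. Their summed levels were 4.08 to 5.53 CPM in control and 5.62 to 6.64 CPM in NCML libraries for fibroblasts, 3.53 to 3.96 and 3.11 to 3.78 CPM for endothelium, and 161 to 183 and 153 to 174 CPM for leukocytes, where CD68, which carcinoma lines also express, made up nearly all of the sum. The fibroblast sums did not overlap between the groups. PDGFRB, at 3.07 to 4.16 CPM in control and 4.11 to 4.88 CPM in NCML libraries, and LUM, at 0.605 to 1.25 and 1.04 to 1.71 CPM, made up most of them, and DCN and POSTN were at or near 0 in both groups. The part of these markers in the results was not tested.

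The cells transcribed most of the matrix genes, but over a very wide range of levels. The mean over the 8 libraries was at least 0.5 CPM for 42 of the 50 genes, and the other 8 were under it. Together the 50 genes made up 0.876% to 0.935% of all CPM, with a sum of 9128 ± 212 CPM in control and 9195 ± 281 CPM in NCML cells (mean ± SD, n = 4 each). Levels of different genes are compared here as CPM per kilobase of the canonical transcript. On this scale P4HB, which is protein disulfide isomerase and the beta subunit of collagen prolyl 4-hydroxylase, stood first at 607 ± 23.3 CPM per kb (SD, n = 8). It was followed by FN1 (fibronectin) at 244 ± 8.36, the laminin chain LAMB3 at 194 ± 13.5, the lysyl oxidase family member LOXL2 at 120 ± 6.31 and the collagen chaperone SERPINH1 at 106 ± 5.36 CPM per kb. Among the collagens COL13A1, a transmembrane collagen, had the highest level, at 60.9 ± 4.69 CPM per kb, and COL4A2 came next at 19.8 ± 1.09 CPM per kb. The basement membrane linker NID1 (nidogen) stood last at 0.00379 CPM per kb.

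**Figure D1:**
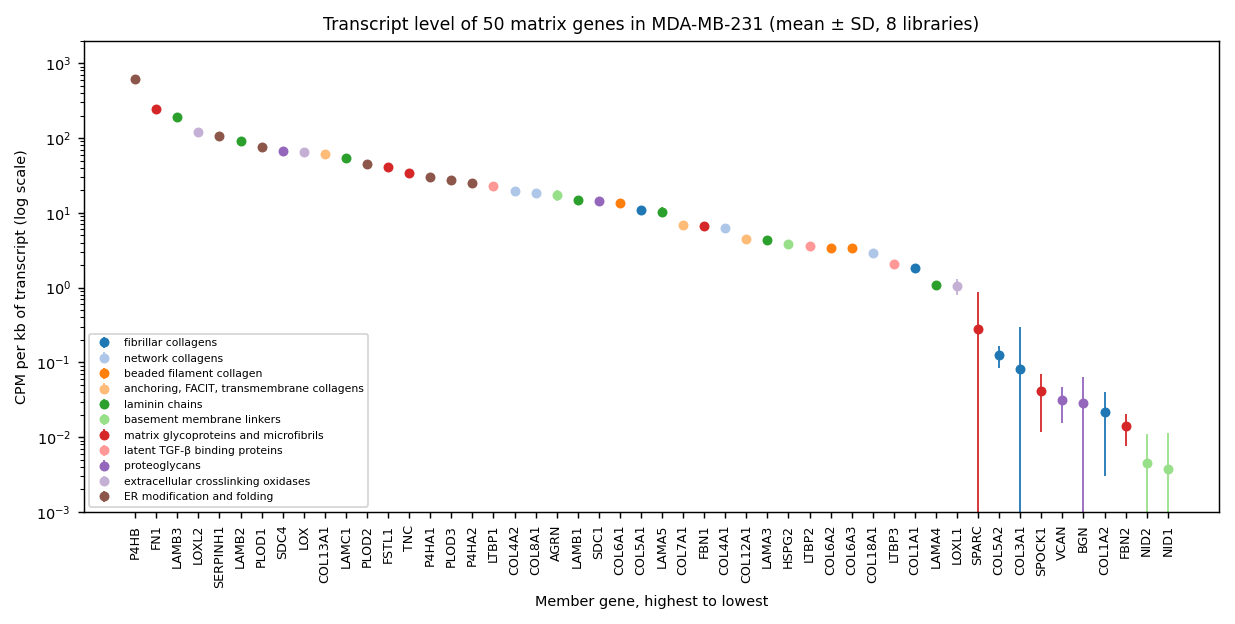
Level of each of the 50 matrix genes in CPM per kilobase of transcript (log axis), ordered from highest to lowest; points are means over the 8 libraries, bars are SD, bars that reach 0 run off the axis, and colors mark the role of the gene. P4HB stands first at 607 CPM per kb, 40 genes lie above 1 CPM per kb, and the 10 genes from SPARC to NID1 lie below 0.3 CPM per kb.

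Between the groups, 1 of the 50 genes was higher and 1 was lower in NCML cells at an FDR of 0.3, and 48 did not pass. The gene that was higher was COL8A1, a network-forming short-chain collagen, and the one that was lower was COL6A3, a chain of the beaded-filament collagen VI. Over all genes 0.895% passed this threshold, 0.674% higher and 0.221% lower. At an FDR of 0.05 no gene of the 50 and none of the 17649 passed (limma, Benjamini-Hochberg adjustment over all genes), whereas 5 of the 50 had an unadjusted p below 0.05, 2 higher and 3 lower, against 7.66% of all genes (4.77% higher, 2.90% lower). The log2 fold change was above 0 for 31 and below 0 for 19 of the 50, with a median of 0.03 against 0.01 over all genes. Over all genes it was above 0 for 9445 and below 0 for 7441. Among the 13047 genes that averaged at least 1 CPM these counts were 7669 and 5378. The values of the groups did not overlap for 2 genes that were higher in NCML cells, COL8A1 and SDC4, and for 1 that was lower, COL6A3, against 2.50% and 1.27% of all genes (3.78% in either direction). In these bulk cultures a change in the number of cells that express a gene cannot be told apart from a change in the RNA per cell.

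**Figure D2:**
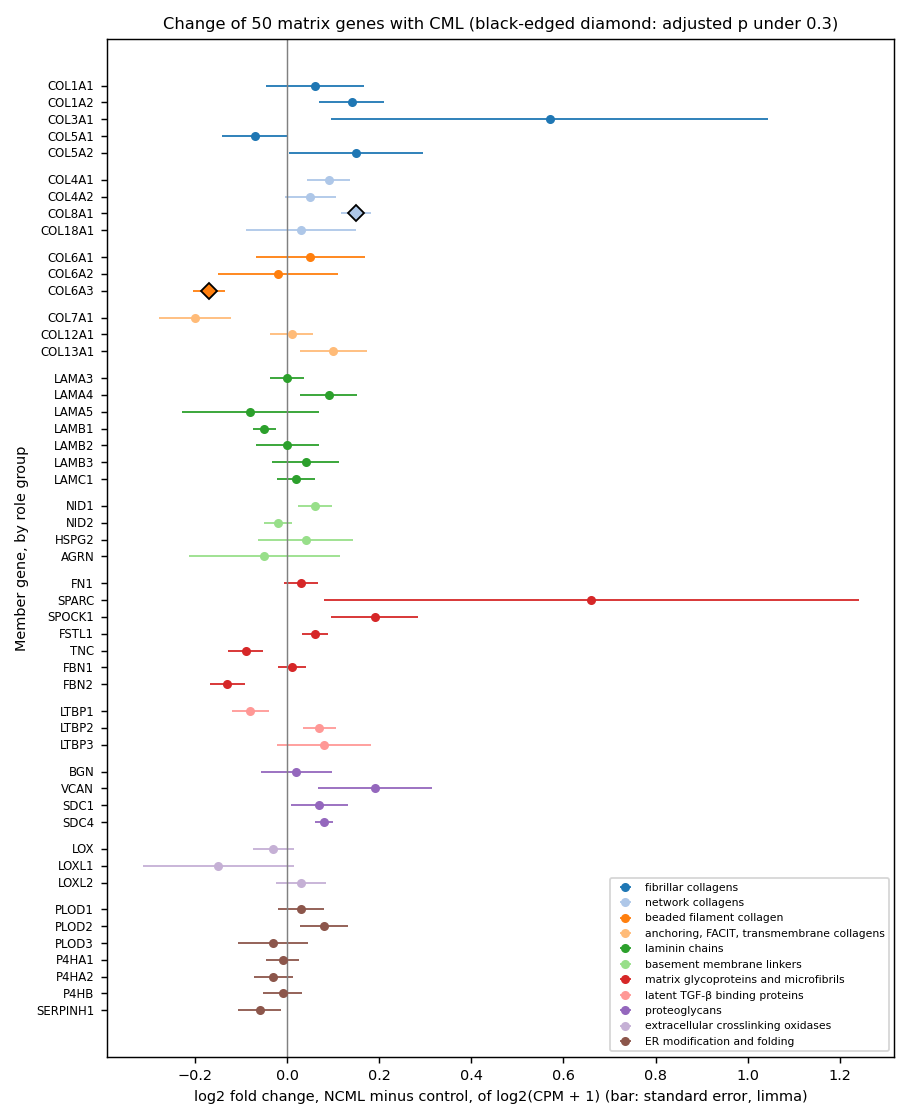
Log2 fold change of each of the 50 genes, NCML minus control on log2(CPM + 1), with bars of 1 standard error from limma, colored by role; diamonds mark an adjusted p below 0.3. COL8A1 (0.15) and COL6A3 (-0.17) passed, COL7A1 lies lowest at -0.20, and COL3A1 and SPARC (0.57 and 0.66) have the widest bars.

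COL8A1 (ENSG00000144810.16) encodes the alpha 1 chain of collagen VIII, which forms hexagonal networks under endothelium and is made by remodelling tissue. The gene lies at chr3:99638594-99799217 on the plus strand (GRCh38.p14, RefSeq), and no other gene of the table overlaps it. Its level was 92.8, 94.6, 103 and 95.6 CPM in control libraries 1 to 4 and 106, 109.9, 106 and 105 CPM in NCML libraries 1 to 4. All 4 NCML libraries were above the highest control, by a narrow margin. The means were 96.4 ± 4.28 and 107 ± 2.06 CPM (SD, n = 4 each), and the log2 fold change was 0.15 (SE 0.0325, limma adjusted p = 0.295). The call lay just inside the threshold and held under 6 of 18 alternative settings, with adjusted p-values from 0.0285 to 0.554, while the fold change stayed between 0.12 and 0.18. It was lost without control replicate 1 (adjusted p = 0.447) or 2 (0.475), and without NCML replicate 1 (0.471), 2 (0.554), 3 (0.444) or 4 (0.426).

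COL6A3 (ENSG00000163359.15) encodes the long alpha 3 chain of collagen VI, the source of the secreted fragment endotrophin. It lies at chr2:237324018-237414164 on the minus strand, with no overlapping gene in the table. The 250 bases upstream of its start, chr2:237414165-237414414 read on the minus strand (GRCh38.p14, RefSeq), are printed because this is the gene with the lower call. They hold none of the motifs searched on either strand, which were the GC box (GGGCGG), the CCAAT box (CCAAT) and the TATA box (TATAAA).
COL6A3 upstream: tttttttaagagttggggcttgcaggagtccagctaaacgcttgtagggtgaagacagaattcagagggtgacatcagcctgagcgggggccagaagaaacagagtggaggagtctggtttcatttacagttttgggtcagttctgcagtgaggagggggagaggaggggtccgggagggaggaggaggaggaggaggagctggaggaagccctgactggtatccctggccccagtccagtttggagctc

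The level of COL6A3 was 37.6, 35.5, 37.4 and 39.0 CPM in control libraries 1 to 4 and 33.9, 31.8, 33.0 and 34.2 CPM in NCML libraries 1 to 4. Every NCML library was below every control library. The means were 37.4 ± 1.42 and 33.2 ± 1.09 CPM (SD, n = 4 each), with a log2 fold change of -0.17 (SE 0.0350, limma adjusted p = 0.278). The call held under 8 of 18 alternatives, with adjusted p-values from 0.0864 to 0.502 and a fold change between -0.19 and -0.15 on the log2 scale. It was lost without control replicate 1 (adjusted p = 0.447), 2 (0.302) or 3 (0.485), and without NCML replicate 1 (0.407), 2 (0.502), 3 (0.444) or 4 (0.358).

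The other chains of collagen VI, which join with alpha 3 into a heterotrimer, did not pass the test. COL6A1 was at 56.2 ± 8.30 CPM in control and 57.8 ± 5.16 CPM in NCML cells, and COL6A2 at 11.9 ± 1.94 and 11.7 ± 1.32 CPM (log2 fold changes 0.05 and -0.02, neither called). The ratio of COL6A1 to COL6A2 was 4.73 ± 0.216 and 4.95 ± 0.292 (SD, n = 4 each). The ratio of COL6A3 to COL6A1, computed after the values had been seen, was 0.680 ± 0.131 in control and 0.579 ± 0.0715 in NCML libraries, and its groups overlapped.

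**Figure D3:**
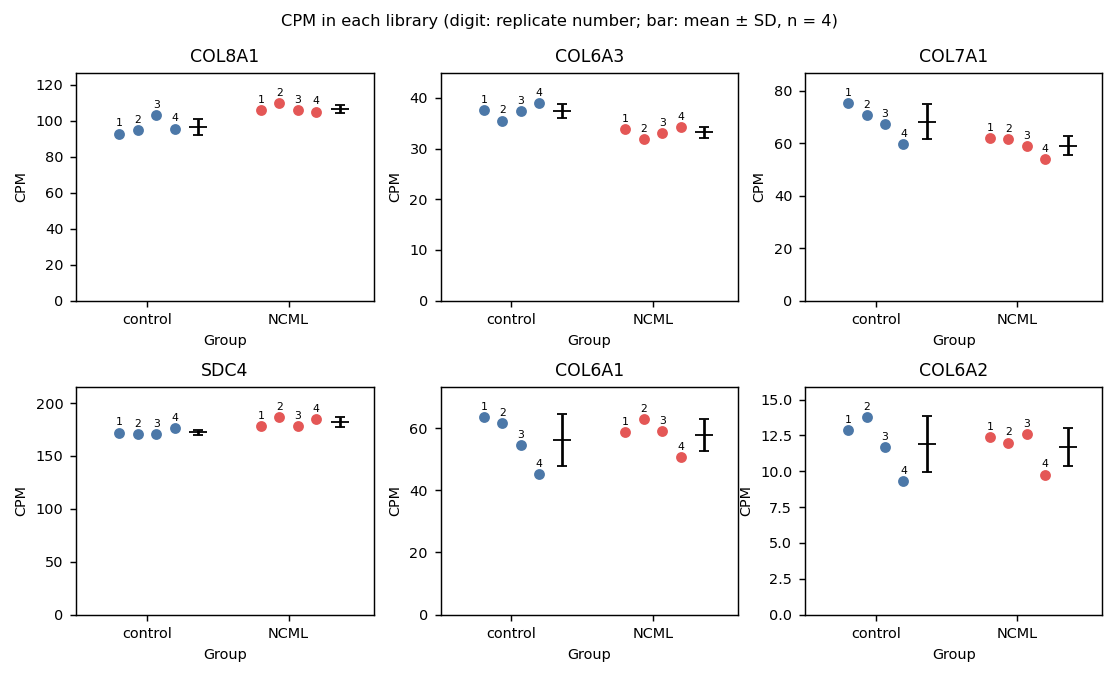
CPM in each of the 8 libraries, control and NCML, for COL8A1, COL6A3, COL7A1, SDC4, COL6A1 and COL6A2; points are single libraries with their replicate number and bars are mean ± SD (n = 4). The groups are apart for COL8A1, COL6A3 and SDC4 and overlap for COL7A1, COL6A1 and COL6A2, whose lowest value in each group is replicate 4 (59.7 and 53.8 CPM for COL7A1).

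Grouped with COL8A1 were COL4A1 and COL4A2, which encode the chains of the main type IV collagen heterotrimer. COL18A1, in the same group, encodes a basement membrane collagen whose cleavage releases endostatin. COL4A1 was at 37.5 to 42.1 CPM in control and 39.8 to 44.1 CPM in NCML libraries, COL4A2 at 112 to 134 and 124 to 133 CPM, and COL18A1 at 12.4 to 18.3 and 14.3 to 17.8 CPM. The fold changes of all 4 network collagens were above 0 on the log2 scale, at 0.03 to 0.15 with a median of 0.07, and COL8A1 was the 1 that passed. Of the 13047 genes that averaged at least 1 CPM, 7669 were above 0. Without control replicate 4 the fold change was -0.06 for COL18A1, -0.00 for COL4A2, 0.07 for COL4A1 and 0.15 for COL8A1. COL4A1 and COL4A2 are transcribed in opposite directions from starts separated by 126 bases. That interval, chr13:110307158-110307283 written on the plus strand (GRCh38.p14, RefSeq), is printed because both chains share it. It holds 80.2% GC, with 1 CCAAT box and 1 GC box in capitals.
COL4A1-COL4A2 interval: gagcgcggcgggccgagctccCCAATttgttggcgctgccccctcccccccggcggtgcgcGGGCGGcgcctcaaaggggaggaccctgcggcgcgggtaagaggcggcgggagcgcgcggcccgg

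The ratio of COL4A1 to COL4A2 stayed between 0.298 and 0.338 over all 8 libraries, with means of 0.317 ± 0.0181 in control and 0.326 ± 0.00797 in NCML cells. Its coefficient of variation was 4.31%, against 5.69% for COL4A1 and 5.50% for COL4A2 alone. For the ratio of COL6A1 to COL6A2 it was 5.49%, against 11.3% and 13.0% for the single genes. For LAMA3 to LAMB3 it was 9.47%, against 3.53% and 6.94%. It was also above both single genes for LAMB1 to LAMC1 (4.42%, against 2.97% and 3.96%), P4HA1 to P4HA2, PLOD2 to PLOD1, LOX to LOXL2 and COL5A1 to COL5A2. For HSPG2 to AGRN it was below both. COL6A1 and COL6A2 have 63.5% and 66.4% GC, and LAMA3 and LAMB3 50.7% and 59.5%. Libraries differed along GC content, as described below. The part of GC content in these ratios, and of the shared interval in the COL4A1 to COL4A2 ratio, was not tested.

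COL7A1 (ENSG00000114270.17) encodes the collagen of the anchoring fibrils that fix the basement membrane to the dermis, and had the lowest fold change of the 50 genes. It lies at chr3:48564073-48595329 on the minus strand with no overlapping gene in the table. Its upstream 250 bases, chr3:48595330-48595579 read on the minus strand (GRCh38.p14, RefSeq), are printed because its call changed with the correction for GC content described below. They hold 60.8% GC, with 1 TATA box and 3 GC boxes on either strand in capitals.
COL7A1 upstream: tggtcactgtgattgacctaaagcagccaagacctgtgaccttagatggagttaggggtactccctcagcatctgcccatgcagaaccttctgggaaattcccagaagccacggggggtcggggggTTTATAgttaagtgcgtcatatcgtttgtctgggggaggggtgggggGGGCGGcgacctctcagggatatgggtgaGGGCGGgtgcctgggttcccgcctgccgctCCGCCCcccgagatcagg

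In the RefSeq promoters of the same 250-base length, the GC box was present in 42.6% of 35116 promoters and in 31 of the 41 matrix genes with an entry, the CCAAT box in 32.0% and 11 of 41, and the TATA box in 10.7% and 5 of 41. COL8A1 had no entry. The 35116 promoters were counted as entries, of all genes, whereas each matrix gene was counted once, so the shares are not in the same unit. A match of letters is a description of the window and not a binding site.

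The level of COL7A1 was 75.3, 70.5, 67.3 and 59.7 CPM in control libraries 1 to 4 and 61.9, 61.5, 58.8 and 53.8 CPM in NCML libraries 1 to 4. Control replicate 4 fell within the NCML range, so the groups overlapped. The means were 68.2 ± 6.55 and 59.0 ± 3.74 CPM (SD, n = 4 each), with a log2 fold change of -0.20 (SE 0.0777) that did not pass in limma (adjusted p = 0.595). Without control replicate 4 it passed, with a fold change of -0.26 on the log2 scale and an adjusted p of 0.251 in limma, in a fit where 3.91% of all genes passed.

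The remaining collagens did not pass the test. COL13A1 was at 163 to 200.5 CPM in control and 181 to 211 CPM in NCML libraries, and the fibril-associated COL12A1 at 48.6 to 54.2 and 50.4 to 56.3 CPM. Of the fibrillar collagens, COL5A1, the chain that nucleates thin fibrils, was at 83.6 to 103 CPM in control and 81.6 to 95.0 CPM in NCML cells, and COL1A1, the main chain of type I collagen, at 9.63 to 11.4 and 9.40 to 13.3 CPM. Their usual partner chains were far lower. COL5A2 was at 0.463 to 1.24 CPM over all libraries, with a ratio of COL5A1 to COL5A2 of 65.6 to 198, and COL1A2 was at 0 to 0.249 CPM, or 0 to 4 reads. Because COL1A2 was at 0 in 2 control libraries, no ratio to COL1A1 was formed.

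COL3A1, the type III collagen of reticular fibers, and SPARC, a collagen-binding matricellular glycoprotein, were near 0 everywhere except in NCML replicate 3. COL3A1 was at 0, 0, 0.0605 and 0 CPM in control libraries 1 to 4 and at 0.116, 0.0535, 3.35 and 0 CPM in NCML libraries 1 to 4. SPARC was at 0.119, 0.414, 0.302 and 0.114 CPM in control and at 0.174, 0.375, 6.03 and 0.249 CPM in NCML libraries. The values of NCML replicate 3 correspond to 55 reads of COL3A1 and 99 reads of SPARC. Of the 17649 genes, only these 2 had at least 1 CPM in NCML replicate 3 and 5 times the level of every other library. These cut-offs were chosen after the values of COL3A1 and SPARC had been seen, so the count is a description and not a test. Applied to each of the other libraries, the same rule found 2 genes in control replicate 1 and 1 in control replicate 3. None of those were matrix genes of the list, and the remaining libraries had none. In NCML replicate 3 COL1A1 was at 10.2 and COL1A2 at 0.244 CPM, both within the range of the other libraries. The summed fibroblast markers were 6.64 CPM there, the highest of the 8 libraries, next to 6.22 CPM in NCML replicate 4. PDGFRB at 4.88 and LUM at 1.71 CPM made up nearly all of this sum. PDGFRA was at 0.0609 CPM in that library, and DCN, POSTN and FAP were at 0. The source of the COL3A1 and SPARC reads was not tested. Neither COL3A1 nor SPARC passed the test between groups.

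**Figure D4:**
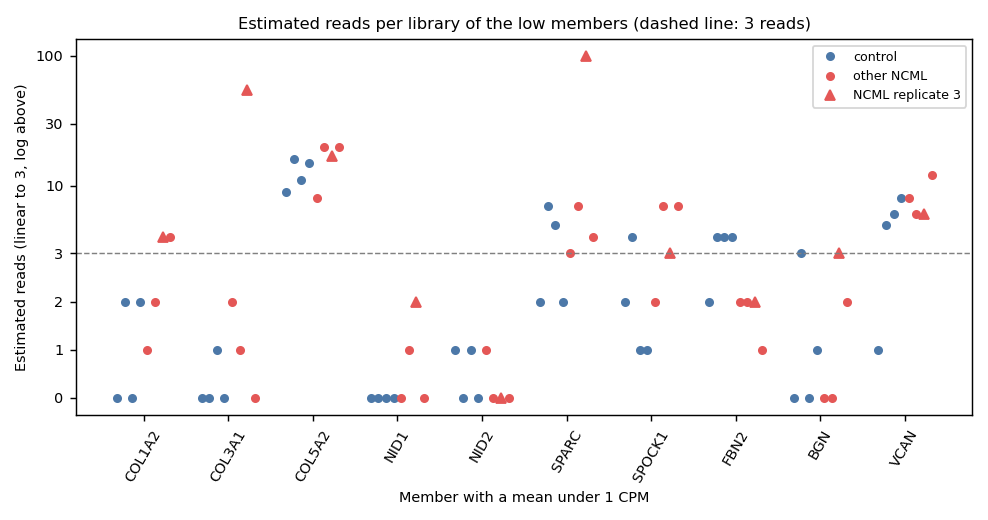
Estimated reads in each library (linear to 3, logarithmic above) for the 10 matrix genes with a mean below 1 CPM; circles are control and NCML libraries, triangles are NCML replicate 3, and the dashed line marks 3 reads. COL3A1 (55 reads) and SPARC (99 reads) in NCML replicate 3 stand far above the rest, which stay at or below 20 reads.

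Of the basement membrane genes, the laminin chains LAMB3, LAMB2 and LAMC1 had the highest levels per length, at 194, 91.5 and 53.4 CPM per kb. LAMB3, a chain of laminin-332, was at 684 to 829.7 CPM in control and 710.4 to 826 CPM in NCML libraries, LAMB2 at 472 to 561 and 477 to 544 CPM, and LAMC1, the gamma chain that most laminins share, at 388 to 444 and 417 to 432 CPM. LAMA5, LAMB1 and LAMA3 lay between 44.3 and 145 CPM, and LAMA4 between 7.04 and 8.74 CPM. None of the 7 chains passed the test, and their median log2 fold change was 0.00. The ratio of LAMB1 to LAMC1 was 0.202 in control and 0.193 in NCML cells on average, and that of LAMA3 to LAMB3 was 0.0606 and 0.0590, with overlapping groups for both ratios.

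None of the 4 basement membrane linkers passed the test. HSPG2, which encodes the heparan sulfate proteoglycan perlecan, was at 45.0 to 58.8 CPM in control and 47.1 to 59.3 CPM in NCML libraries. AGRN, which encodes agrin, was at 98.3 to 157 and 106 to 132 CPM, but its values are uncertain, since they were whole reads in only 4 of the 8 libraries. The ratio of HSPG2 to AGRN was 0.424 in control and 0.448 in NCML cells. The nidogens, which bridge laminin and collagen IV, were at the limit of detection, with NID1 at 0 to 2 reads and NID2 at 0 to 1 read in each library.

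Of the matrix glycoproteins and microfibrils, FN1 was at 1938, 1958, 2072 and 2113 CPM in control libraries 1 to 4 and 2057, 2135, 2070 and 2010 CPM in NCML libraries 1 to 4. The groups overlapped, with means of 2020 ± 85.5 and 2068 ± 51.6 CPM. TNC, the matricellular tenascin-C, was at 284 to 316 CPM in control and 271 to 289 CPM in NCML libraries (log2 fold change -0.09, limma adjusted p = 0.667), and the secreted glycoprotein FSTL1 at 222 to 237 and 231 to 246 CPM (0.06, adjusted p = 0.673). FBN1, the main fibrillin of microfibrils, was at 74.0 to 80.2 CPM over all libraries. FBN2 was at 1 to 4 reads in each library and did not pass (adjusted p = 0.444; without control replicate 1, 0.181), and SPOCK1, a testican, was at 1 to 7 reads. The latent TGF-β binding proteins tether the latent growth factor to the matrix. LTBP1 was at 143 to 158 CPM in control and 138 to 148 CPM in NCML libraries, LTBP2 at 27.7 to 30.6 and 29.5 to 31.4 CPM, and LTBP3 at 8.43 to 10.9 and 8.99 to 11.7 CPM, and none passed (adjusted p = 0.721, 0.728 and 0.949).

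SDC4 encodes syndecan-4, a transmembrane heparan sulfate proteoglycan that acts with integrins in focal adhesions. It was at 172, 171, 171 and 176 CPM in control libraries 1 to 4 and 178, 187, 178 and 185 CPM in NCML libraries 1 to 4. The lowest NCML library was above the highest control library, yet the log2 fold change of 0.08 did not pass (limma adjusted p = 0.382). It passed without control replicate 4 (adjusted p = 0.261), in a fit where 3.91% of all genes passed. In no other fit that left out a single library did SDC4 pass. SDC1, the epithelial syndecan, was at 41.5 to 48.9 CPM in control and 43.9 to 48.9 CPM in NCML libraries and was not called. The small leucine-rich proteoglycan BGN (biglycan) was at 0 to 3 reads and the large proteoglycan VCAN (versican) at 1 to 12 reads.

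Crosslinks are made by the lysyl oxidases outside the cell, on lysines that hydroxylases modified inside it. LOX, which oxidizes lysine in collagen and elastin, was at 317 to 363 CPM in control and 316 to 343 CPM in NCML libraries, LOXL2 at 404 to 475 and 427 to 469 CPM, and LOXL1 at 1.65 to 3.64 CPM over all libraries. None of the 3 oxidases passed, and their sum was 779.9 ± 23.0 and 781 ± 10.9 CPM. The ratio of LOX to LOXL2 was 0.762 in control and 0.727 in NCML cells. The lysyl hydroxylases PLOD1, PLOD2 and PLOD3 prepare lysines for crosslinking, and were at 211 to 241, 154 to 183 and 68.2 to 83.2 CPM over all libraries, with a ratio of PLOD2 to PLOD1 of 0.747 in control and 0.768 in NCML cells.

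The prolyl 4-hydroxylase subunits P4HA1 and P4HA2, which stabilize the triple helix, were at 78.3 to 86.6 and 107 to 121 CPM over all libraries, and their ratio was 0.720 in control and 0.734 in NCML cells. P4HB was at 1388 to 1531 CPM in control and 1399 to 1519 CPM in NCML libraries, and SERPINH1, the chaperone HSP47, at 206 to 236 and 202 to 219.8 CPM. None of the 7 genes of the endoplasmic reticulum, the PLOD genes included, passed. PLOD2 did without control replicate 4 (log2 fold change 0.13, limma adjusted p = 0.268), in a fit where 3.91% of all genes passed. The summed level of the 7 genes was 2370 ± 81.6 CPM in control and 2363 ± 76.3 CPM in NCML cells.

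Libraries of the same group differed in these genes along the GC content of the transcript, and the libraries numbered 4 were lowest in most of the GC-rich genes. Over the 40 genes that averaged 1 CPM or more, the difference between replicate 4 and the mean of replicates 1 to 3 correlated with GC content at a Pearson r of -0.913 in control and -0.807 in NCML libraries. The same measure was 0.802 for control replicate 1, which was high in GC-rich genes, and between -0.211 and 0.583 for the other 5 libraries. These correlations are descriptions across genes, which all share the same libraries, and the libraries of a group are set against each other. Of the 22 genes with at least 56% GC, a value chosen after the data were seen, 19 were lowest in replicate 4 in both groups, against 46.8% of the 3362 genes in that range. Of the 18 genes below it, none were lowest in both and 5 were highest in both, namely COL6A3, COL12A1, LOX, PLOD2 and P4HA1, against 4.36% and 25.6% of 9615 genes. In control cells the difference was -0.50 for LAMA5, -0.49 for AGRN, -0.42 for COL6A2 and -0.39 for COL6A1 on the log2 scale, and 0.19 for PLOD2. In NCML cells it was -0.30, -0.28, -0.31, -0.25 and 0.07.

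**Figure D5:**
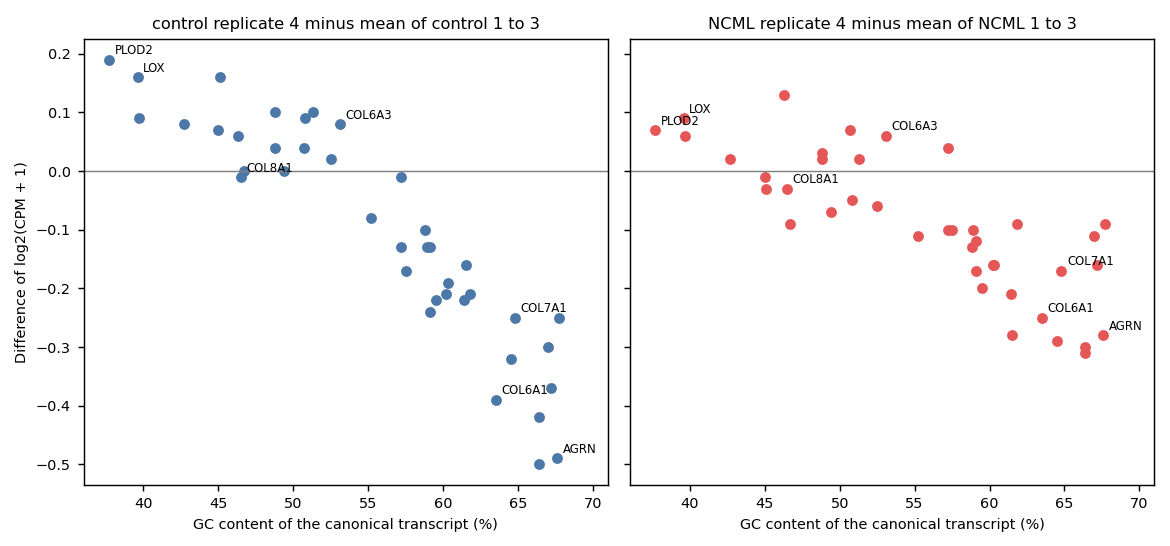
Difference of the library numbered 4 from the mean of replicates 1 to 3 of its group on log2(CPM + 1), against the GC content of the canonical transcript in percent, for the 40 matrix genes that averaged 1 CPM or more; each point is a gene, control on the left and NCML on the right. The difference falls with GC content in both groups, to -0.50 in control and -0.31 in NCML cells.

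After the trend with GC content and length had been removed from every library, 8 of the 40 genes in that fit passed an FDR of 0.3, 3 higher and 5 lower in NCML cells, against 6.74% of 12977 genes (4.24% higher, 2.50% lower). The genes that were higher were COL8A1 (log2 fold change 0.14, limma adjusted p = 0.0404), SDC4 (0.07, 0.178) and COL13A1 (0.09, 0.212). Those that were lower were COL7A1 (-0.20, 0.00361), TNC (-0.09, 0.0825), COL6A3 (-0.17, 0.0911), LTBP1 (-0.09, 0.185) and SERPINH1 (-0.07, 0.216). In the corrected values the groups did not overlap for 6 of the 40 genes, against 7.04% of the 12977, and these were the called genes other than COL13A1 and LTBP1. Of all genes called in this fit, 65.5% had groups that did not overlap. For COL7A1 the corrected log2 values were 6.13, 6.10, 6.10 and 6.10 in control libraries 1 to 4 and 5.93, 5.93, 5.86 and 5.90 in NCML libraries 1 to 4. The spread within each group was thus narrower than in the uncorrected values, and its standard error fell from 0.0777 to 0.0339. The fold changes of COL7A1, COL6A3 and COL8A1 had been -0.20, -0.17 and 0.15 before the correction. At an FDR of 0.05, 2 of the 40 genes passed in this fit, COL8A1 and COL7A1, as did 169 of the 12977.

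A further list of 94 genes held the other collagens, laminins, fibulins, proteoglycans and matrix enzymes, and 83 of them were in the table. Of these 1 was higher, none were lower and 82 did not pass at an FDR of 0.3. Over all genes 0.895% passed, 0.674% higher and 0.221% lower. The median log2 fold change of the list was 0.01. The gene that passed was P3H2, which encodes a prolyl 3-hydroxylase that modifies type IV collagen chains. It was at 48.0, 47.2, 49.2 and 50.9 CPM in control libraries 1 to 4 and 53.1, 57.0, 55.5 and 56.6 CPM in NCML libraries 1 to 4. The groups did not overlap (48.8 ± 1.59 and 55.6 ± 1.77 CPM, SD, n = 4 each), and the log2 fold change was 0.18 (SE 0.0315, limma adjusted p = 0.183). This call was lost without control replicate 1 (adjusted p = 0.342), 2 (0.352) or 3 (0.355), and without NCML replicate 2 (0.440), 3 (0.350) or 4 (0.341). The next smallest p-values were those of EFEMP1, a fibulin, PRELP and FMOD, small leucine-rich proteoglycans, and TNXB, tenascin-X. EFEMP1 was at 44.7 ± 2.61 CPM in control and 48.9 ± 1.44 CPM in NCML cells and TNXB at 16.7 ± 1.5 and 14.2 ± 1.6 CPM (adjusted p = 0.547 and 0.653). FMOD was at 0.311 to 0.969 CPM over all libraries and PRELP at 0 to 0.161 CPM, and neither passed. In this list the groups did not overlap for 2 genes that were higher (P3H2 and EFEMP1) and 1 that was lower (P3H4). The shares of all genes were 2.50% and 1.27%.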

How the data were processed

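RNA-Seq libraries were assigned to 4 control and 4 NCML samples by their titles. The values deposited by the authors are CPM scaled by TMM factors, and the submitters' processing notes name edgeR and hg38. The study's methods name Tophat with Ensembl annotation, on an earlier genome build, for its tumor RNA-Seq. Whether this held for the CML libraries is not given in the sources used here, nor is their counting tool. The methods and the extraction protocol name HiSeq, and the design text names NextSeq. TMM scaling fixes the level of each gene relative to the others, and CPM are not corrected for GC content. The table held 17681 rows. Rows of the 32 symbols with more than 1 row were averaged, which left 17649 genes. Steps in the CPM values gave estimated reads. With the highest values left out, 84.0% to 85.1% of values above 0 were whole within 0.01 read, so no count test was run.

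log2(CPM + 1) was compared with limma 3.58.1 in R 4.3.3 (variance trend, no covariate, Benjamini-Hochberg adjustment over all genes, FDR 0.3 after the study's methods for this experiment, and 0.05), and the script was tested on simulated data. Fold changes are on the log2(CPM + 1) scale, which understates changes of low genes. Adjusted p-values in the text are from this limma fit. The 11 role groups, the companion list and the members were chosen with earlier results of these data known. Named in full were genes with an adjusted p below 0.3, the 12 smallest p-values, the 8 highest levels, partner chains, genes whose groups did not overlap and, by level, those under 0.5 CPM. The other members were given by level. From the further list, genes with an adjusted p below 0.3 and the 5 smallest p-values were named. Transcript GC content and length came from GENCODE 44 canonical transcripts lifted to GRCh37, and coordinates and upstream sequences from RefSeq GRCh38.p14. The GC and length correction removed a smooth fit in each library over genes that averaged 1 CPM or more. Several members overlap another gene of the table, and the strandedness of the counting is not given in the sources used here: COL4A1 with COL4A2, COL18A1 with SLC19A1, LAMA5 with ADRM1, LAMB1 with DLD, LOX with SRFBP1, LOXL1 with LOXL1-AS1, LOXL2 with ENTPD4, PLOD2 with LNCSRLR, PLOD3 with ZNHIT1 and P4HA2 with PDLIM4 and SLC22A4, so their reads may be shared. Alternatives were another pseudocount, a filter on low values, rows kept separate, other scalings, no trend, a replicate block, the GC and length correction, and leaving out libraries. Python 3.11.15 and matplotlib 3.10.9 were used for the figures.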

Additional observations from a re-analysis of the deposited data

Results flagged for a closer look

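Of 93 groups of 4 libraries tested with Dixon's criterion, 4 had a library that lay far from the other 3, against 4.65 that chance gives. COL3A1 was at 3.35 CPM in NCML replicate 3 and at 0 to 0.116 CPM in the other NCML libraries. SPARC was at 6.03 CPM in the same library and at 0.174 to 0.375 CPM in the others. COL8A1 was at 109.9 CPM in NCML replicate 2 and at 105 to 106 CPM in the other NCML libraries, and its log2 fold change without that library was 0.14. FBN2 was at 0.119 CPM in control replicate 1 and at 0.228 to 0.242 CPM in the other control libraries, which is a difference of 2 reads against 4.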

How the results depend on the processing

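The single gene of the 50 that was higher became 0 with a pseudocount of 0.1, with libraries centred on their median, with quantile normalization, without the variance trend, with the replicate number as a block, and without both libraries numbered 4 (a choice made after seeing the data). It became 3 with the GC and length correction, with or without the block, and 0 to 3 when single libraries were left out. The single lower gene became 0 with a minimum mean of 1 CPM, with median centring and without both libraries numbered 4, 2 with the block (COL7A1 joined, adjusted p = 0.263), 5 with the GC and length correction with or without the block, and 0 to 2 with single libraries left out. Over the whole table the 158 calls became 73 with median centring, 875 with the GC and length correction, 929 with that correction and the block and 321 without both libraries numbered 4, and ranged from 20 (without NCML replicate 2) to 690 (without control replicate 4). In the further list of matrix genes the 1 call became 0 with median centring, 5 with the GC and length correction with or without the block, and 0 to 1 with single libraries left out. The sign of the fold change held in each alternative that could be run (15 to 18 a gene) for the 12 members with the smallest p and for P3H2. These genes were picked for a small p in the same data, so a kept sign is no measure of their stability. For the other members, 659 of 663 values moved by less than the spread between replicates. The other 4 moved by more, all with a pseudocount of 0.1 and all for genes near 0 (COL3A1, NID1, NID2 and VCAN). Leaving out 1 library cannot move a fold change by more than that spread. The block, the filter and the fit without the trend cannot move it at all, so the count is no measure of stability. Signs did change among these members, as for COL6A1 (-0.05 to 0.11) and AGRN (-0.17 to 0.05). Deviations of same-numbered control and NCML libraries correlated at -0.0645 to 0.334 (mean 0.110, against -0.0362 for differently numbered ones). The correlations were highest for the libraries numbered 4 (0.334) and 1 (0.199), against at most 0.113 for differently numbered ones. The main fit took the samples as unpaired, and whether same-numbered libraries share more than a number was not tested. At this depth, differences in genes with fewer than 3 reads per library could not be detected.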
